A study of Homo sapiens with 4 samples.

Results

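PC3-H and PC3-L are cultures of PC3, an androgen-independent human prostate cancer line that was established from a bone metastasis. Both were isolated from PC3 cells by means of IIH6C4, an antibody against the laminin-binding glycan that alpha-dystroglycan carries, and their 2 arrays are described here out of 4 in the series. By title and source name, PC3-H is the culture high for that glycan and PC3-L the culture low for it, and per the labels PC3-H cells move and invade little whereas PC3-L cells do both readily. Both were grown in RPMI1640 with fetal bovine serum, and no agent was added to either. The other arrays are from LNCaP, an androgen-dependent prostate cancer line, and from a culture labelled LNCaP-AI that was kept in medium with charcoal-stripped serum. Total RNA was measured on a whole-transcript array, once per culture. A difference between PC3-L and PC3-H therefore has no replicate check, no error and no p-value, and the labels do not say whether the cultures are clones or pools.

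Alpha-dystroglycan is a cell surface protein whose O-mannose-linked glycan binds laminin and so ties epithelial cells to the basement membrane. Epithelial carcinoma cells keep junctions through a set of transcription factors (GRHL, EHF, FOXA1) and the splicing regulators ESRP1 and ESRP2. In epithelial-mesenchymal transition that set goes down while repressors of the ZEB and SNAI families, which bind E-box sequences in promoters, and the filament protein vimentin go up. The comparison asks which genes differ between PC3 cells labelled high and PC3 cells labelled low for the glycan.

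The labels do not speak with 1 voice. In the free-text descriptions the glycan is low in PC3-H and high in PC3-L, the reverse of titles and source names. Titles and source names were followed. The other reading would exchange the words high and low for the glycan and would change no difference between the arrays. The array labelled LNCaP-AI goes against its line label at several line markers. KLK3, which encodes prostate-specific antigen, was 1781 on LNCaP but 61.2 on the array labelled LNCaP-AI, beside 59.0 on PC3-H and 63.4 on PC3-L. KLK3 is itself induced by androgen, of which charcoal-stripped serum is depleted. AXL, a receptor tyrosine kinase, was 1015 on the array labelled LNCaP-AI, beside 609 and 900 on the PC3 pair and 47.4 on LNCaP. CD44 was 297 there, beside 239 and 318 on the PC3 pair and 23.9 on LNCaP. That array is used below only to say where a level lies. Markers of other cell types were read on both PC3 arrays. The measured fibroblast markers summed to 76.1 (PC3-H) and 71.7 (PC3-L), with 0 of 1 past 2-fold. The endothelial markers summed to 234 and 227, with 0 of 5 past 2-fold, and the neuroendocrine markers to 125 and 113, with 0 of 2. The leukocyte markers summed to 480 and 805, with 1 of 3 past 2-fold. That 1 was CD68, a lysosomal protein that was well above the median on both arrays, at 289.5 and 630.4. The Schwann cell markers summed to 238 and 176, with 1 of 3 past 2-fold, the receptor ERBB3, which epithelial cells also carry. The part of such markers in the results below was not tested. No value on either array was below 17.6, so no marker is listed at 0, and a fold is understated for a gene near that floor. In bulk RNA of this kind, fewer cells that express a gene and less of its RNA per cell cannot be told apart.

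A gene was kept where the higher of its 2 intensities reached the 40th percentile of that array, which was 34.8 on PC3-H and 33.6 on PC3-L. Of 14006 named genes, 11126 were kept. Differences are log2(intensity + 1) on PC3-L minus PC3-H, and a fold is that difference turned back to a ratio. Among the kept genes 1373 (12.3%) differed by 2-fold or more. On PC3-L 955 (8.58%) were higher and 418 (3.76%) were lower, with a median log2 difference of -0.02 over all of them. Past 4-fold the directions were nearly even, at 102 higher (0.917%) and 96 lower (0.863%). These shares are the background against which each gene list is read below.

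**Figure D1:**
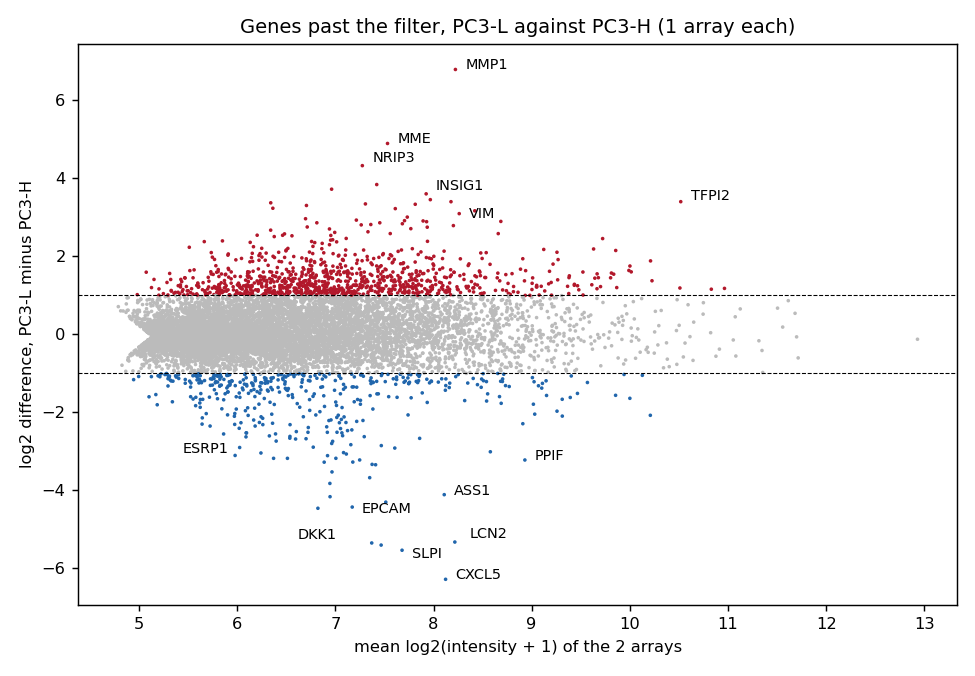
Each point is 1 of 11126 genes, placed by its mean log2(intensity + 1) on the PC3-H and PC3-L arrays (x axis) and its log2 difference, PC3-L minus PC3-H (y axis). Dashed lines mark 2-fold; red points (955) are higher and blue points (418) lower on PC3-L. MMP1 stands alone at the top at 6.79, and CXCL5 lies lowest at -6.28.

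Many of the genes with the largest differences were dim on 1 array and bright on the other. The 20 largest differences in the higher direction ran from 7.62-fold to 111-fold, and the 20 largest in the lower direction from 9.04-fold to 77.5-fold. ESM1, a secreted proteoglycan of endothelial and tumour cells, was 88.1 on PC3-H and 940 on PC3-L (10.6-fold). The membrane protein gene EMP1 was 69.8 and 714 (10.1-fold), and the atypical cadherin FAT1 was 113 and 1026 (8.99-fold). POPDC1, a membrane protein that binds cyclic AMP, was 24.2 and 260 (10.4-fold). On the lower side, CDA, the cytidine deaminase that inactivates cytidine analogues, was 462 and 31.8 (14.1-fold). SFN, the epithelial 14-3-3 protein sigma, was 582 and 44.7 (12.7-fold). The nuclear pore gene NUP210 was 423 and 35.9 (11.5-fold), and the mitochondrial cyclophilin PPIF was 1488 and 159 (9.31-fold). All 20 of the largest lower genes were within 2-fold of their PC3-L level on the array labelled LNCaP-AI, beside 394 of all 418 lower genes. Of the 20 largest higher genes only 11 were within 2-fold of PC3-L there, beside 815 of all 955 higher genes. PC3-H was at least 2-fold above LNCaP at 17 of the 20 largest lower genes, and PC3-L was at least 2-fold above LNCaP at 19 of the 20 largest higher genes. The ranking picks genes that are bright on that PC3 array, so these counts follow in part from the choice.

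Regulators of the epithelial state were low on PC3-L. Of 14 epithelial transcription and splicing factors kept, 7 were 2-fold or more lower and 0 higher, with a median of -1.25 against -0.02 over all genes. ESRP1, which sets epithelial splicing, was 216 on PC3-H and 25.4 on PC3-L (8.22-fold lower), and its relative ESRP2 was 146 and 43.2 (3.34-fold). The ETS factors EHF (202 and 33.7) and SPDEF (306 and 56.5) were 5.86-fold and 5.33-fold lower. FOXA1, the pioneer factor of luminal prostate cells, was 160 and 35.4 (4.44-fold). GRHL2, which maintains junction genes, was 129 and 29.3 (4.28-fold), and KLF5 was 274 and 84.1 (3.22-fold). All 7 were nearer to PC3-L than to PC3-H on the array labelled LNCaP-AI. The difference did not span the whole set. GRHL1 (0.07) and FOXA2 (0.00) had log2 differences near 0, and OVOL1 (-0.82), OVOL2 (-0.51), GRHL3 (-0.70), RBM47 (-0.56) and PITX1 (-0.36) stayed within 2-fold.

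Junction genes were lower in part. Of 29 tight junction and polarity genes 6 were lower and 0 higher. CLDN7 was 355 and 40.3 (8.62-fold), the tricellular junction protein LSR was 333 and 71.4 (4.61-fold), and CLDN3 was 323 and 106 (3.02-fold). The scaffold TJP1 (405 and 354) and OCLN (109 and 143) were within 2-fold. Of 13 genes of the desmosome, the spot weld that anchors keratin filaments, and of the hemidesmosome 4 were lower and 2 were higher. The lower ones were the cytoplasmic linkers: DSP (244 and 37.2, 6.41-fold), JUP (320 and 54.9, 5.75-fold), PKP1 (170 and 33.4, 4.97-fold) and PKP2 (110 and 35.5, 3.03-fold). The higher ones were the desmosomal cadherin DSC3 (56.1 and 242, 4.26-fold) and the hemidesmosomal linker DST (131 and 362, 2.76-fold). DSG2, another desmosomal cadherin, was 303 and 505. DSC3 was 27.1 on the array labelled LNCaP-AI, far from its PC3-L level, whereas the other 5 called genes of the list were nearer to PC3-L there. Once the length trend described further on is removed, DST is at 0.66 and no longer past 2-fold.

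Among 13 genes of the apical and secretory epithelium 6 were lower and 0 higher, with a median of -0.94. With the length trend described further on removed, 4 of the 13 were lower. LAD1, an anchoring filament protein, was 540 and 52.4 (10.1-fold). The membrane protease ST14 was 449 and 45.6 (9.66-fold), and the apical motor MYO5B was 133 and 33.4 (3.88-fold). Of 20 keratins 3 were lower and 0 higher: KRT19 (463 and 48.8), KRT80 (385 and 41.7) and KRT7 (141 and 32.7). KRT18, the most abundant keratin to be named here, was 1436 and 1029, and KRT8 was 88.0 and 107. Keratin RNA was thus present on both arrays, and only KRT19, KRT80 and KRT7 of the kept keratins differed by 2-fold.

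**Figure D2:**
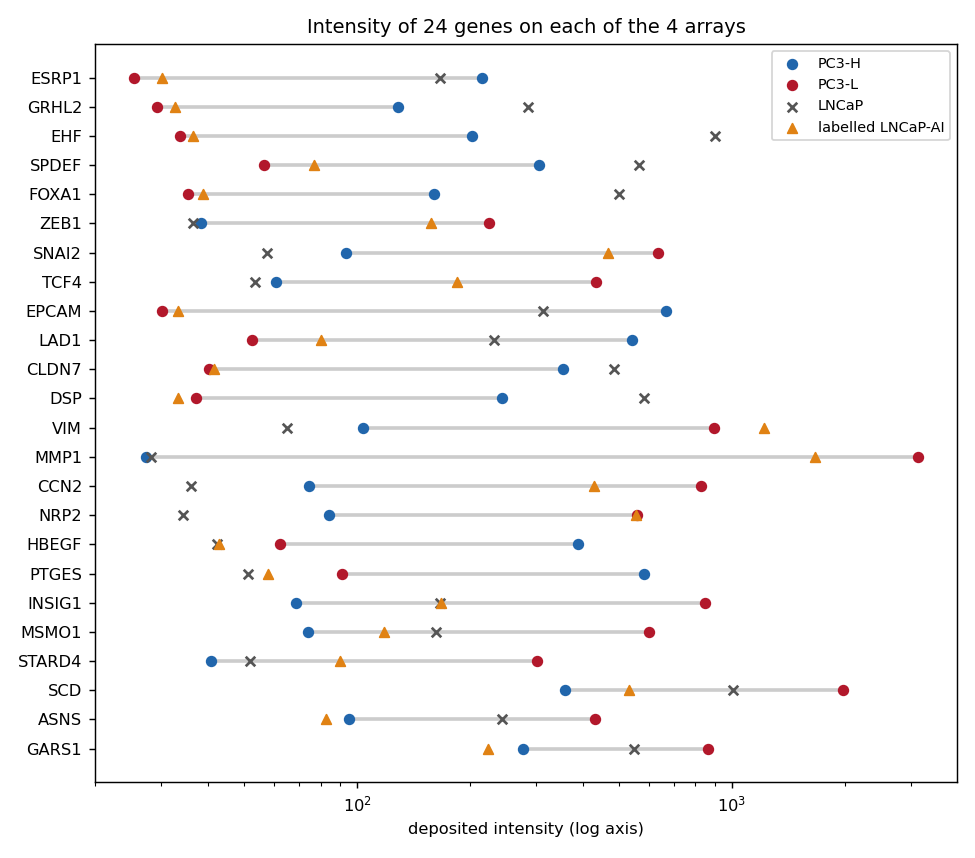
Deposited intensity (x axis, log scale) of 24 genes on each of the 4 arrays, with 1 array per culture and a grey bar joining PC3-H and PC3-L. For the epithelial genes the array labelled LNCaP-AI (triangles) lies by PC3-L, as at EPCAM (33.3 against 30.1), and for INSIG1, MSMO1, STARD4, ASNS and GARS1 it lies nearer to PC3-H, as at ASNS (82.9 against 95.4).

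Of 12 transcription factors of epithelial-mesenchymal transition 3 were higher and 0 lower. SNAI2 was 93.5 on PC3-H and 634 on PC3-L (6.72-fold), ZEB1 was 38.2 and 225 (5.77-fold), and TCF4, an E-box factor that partners TWIST proteins, was 60.9 and 435 (7.05-fold). The values on the array labelled LNCaP-AI were 468, 157 and 184. Other factors of the list were not past 2-fold. ZEB2 had a log2 difference of 0.72, TWIST1 of 0.45 and SNAI1 of -0.49, and TWIST2, PRRX1, TCF3, FOXQ1, RUNX2 and GSC lay between -0.35 and -0.07. The list median of -0.10 was therefore close to that of all genes, and the difference rested on SNAI2, ZEB1 and TCF4. VIM was 104 and 896 (8.55-fold).

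The E-box word that ZEB and SNAI proteins bind was unevenly spread over promoters of the differing genes. The word was CAGGTG, read on both strands (CACCTG on the other), and the window ran from 250 bases before to 50 after the first listed start of a gene in RefSeq (GRCh38.p14). A promoter entry was at hand for 8538 of the 11126 genes (76.7%), and 19.6% of them held the word. It was in 100 of 304 promoters (32.9%) of genes lower on PC3-L and in 91 of 791 (11.5%) of genes higher on it. The share went down in steps across all genes. It was 23.0% of 829 genes that were 1.41-fold to 2-fold lower, 20.2% of 5424 within 1.41-fold and 16.4% of 1190 that were 1.41-fold to 2-fold higher. Past 4-fold it was 27 of 65 (41.5%) for lower genes and 9 of 78 (11.5%) for higher genes. Of the 100 promoters, 32 held the word 2 or more times, and the most in 1 promoter was 5.

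Promoters of 4 genes lower on PC3-L are shown because each holds the word more than once. They were chosen after their values were seen. The printed stretch is the 250 bases before the start, 5′ to 3′ on the gene's own strand, with each match in capitals. LAD1 (chr1:201399325-201399574, minus strand) and DSP (chr6:7541421-7541670, plus strand) are named above. GALNT3 (chr2:165794248-165794497, minus strand) encodes an enzyme that starts mucin-type glycans and was 153 on PC3-H and 32.6 on PC3-L. TMEM30B (chr14:61281339-61281588, minus strand) encodes a flippase subunit and was 232 and 35.9. Another match lies just after the start in GALNT3 and in TMEM30B and is not printed.
LAD1: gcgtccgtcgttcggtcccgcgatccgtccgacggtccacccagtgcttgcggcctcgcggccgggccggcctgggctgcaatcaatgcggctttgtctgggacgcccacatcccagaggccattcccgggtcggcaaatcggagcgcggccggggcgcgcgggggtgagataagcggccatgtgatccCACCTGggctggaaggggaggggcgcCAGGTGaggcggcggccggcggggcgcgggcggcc
DSP: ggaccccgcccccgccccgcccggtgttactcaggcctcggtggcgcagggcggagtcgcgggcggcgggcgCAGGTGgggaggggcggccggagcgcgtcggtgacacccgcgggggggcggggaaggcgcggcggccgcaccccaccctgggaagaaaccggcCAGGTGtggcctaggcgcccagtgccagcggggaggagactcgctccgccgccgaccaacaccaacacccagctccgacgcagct
GALNT3: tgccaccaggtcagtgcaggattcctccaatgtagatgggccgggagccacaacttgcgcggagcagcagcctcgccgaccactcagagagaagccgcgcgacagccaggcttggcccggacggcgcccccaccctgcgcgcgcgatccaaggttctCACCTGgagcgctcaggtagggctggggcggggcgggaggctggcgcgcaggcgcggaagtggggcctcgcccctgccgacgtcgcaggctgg
TMEM30B: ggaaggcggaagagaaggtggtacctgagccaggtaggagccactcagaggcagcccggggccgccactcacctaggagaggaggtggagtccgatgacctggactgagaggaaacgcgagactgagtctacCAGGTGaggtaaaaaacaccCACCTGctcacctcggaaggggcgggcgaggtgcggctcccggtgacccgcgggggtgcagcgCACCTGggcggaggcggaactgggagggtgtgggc

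In LAD1 the matches begin 61 and 35 bases before the start, in DSP 178 and 85, in GALNT3 93, and in TMEM30B 118, 98 and 35. The other E-box hexamers searched the same way did not follow the difference. CAGCTG was in 18.1% of lower and 15.7% of higher promoters, CAGATG in 9.54% and 9.23%, and CACGTG in 7.57% and 11%. Base composition was close in both groups, with a median promoter GC content of 65.8% for lower and 66.7% for higher genes. Within 5 equal groups by promoter GC content the share of CAGGTG ran from 17.9% to 46.8% in lower genes and from 9.79% to 13.0% in higher genes. In the group with the least GC it was 17.9% in lower genes and 17.8% in genes within 2-fold. Within 5 equal groups by gene length it ran from 28.3% to 35.4% in lower genes and from 8.03% to 16.4% in higher genes. By list, the word was in 9 of 22 promoters of tight junction and polarity genes (among them CLDN3, CRB3, PATJ, OCLN and TJP1). It was in 3 of 8 of desmosome and hemidesmosome genes and in 4 of 10 of apical genes. Lists with medians nearer 0 had shares as large, with 6 of 7 androgen-induced genes (list median 0.00), 5 of 14 neuronal and neuroendocrine genes (-0.10) and 5 of 15 NF-kB pathway genes (-0.11), so nothing particular to the epithelial lists is read from it. It was not in the window of every gene that was low on PC3-L, and of the epithelial factors FOXA1 and GRHL3 had it among 8 with an entry. A match is a word in a window and not a measured binding site.

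**Figure D3:**
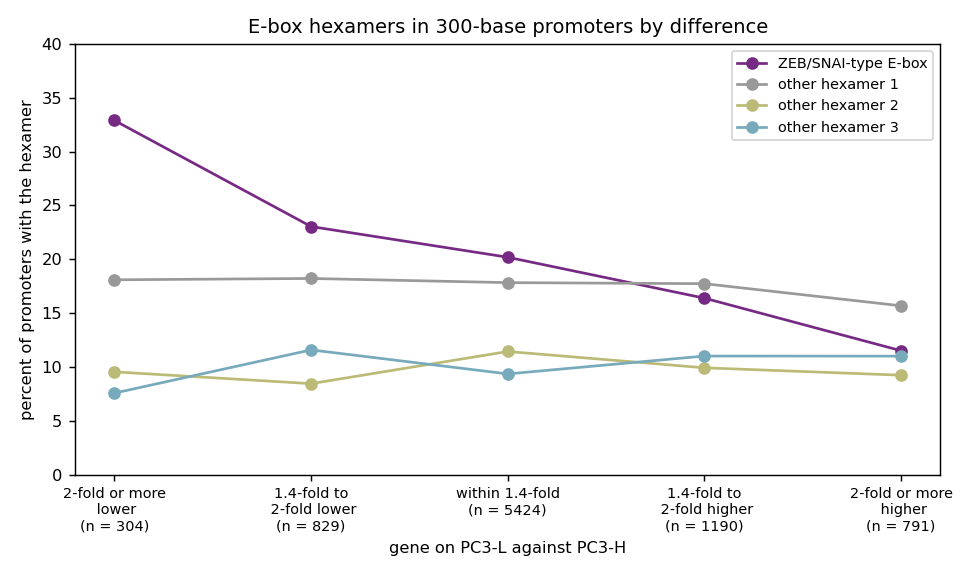
Share of promoters that hold an E-box hexamer (y axis, percent) in genes grouped by their difference on PC3-L against PC3-H (x axis, number of genes in brackets). The ZEB/SNAI-type word goes from 32.9% in lower to 11.5% in higher genes; the other hexamers, numbered 1 to 3 in the order in which the text gives their shares, stay between 7.57% and 18.2%.

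Several secreted defence genes were low on PC3-L. Of 7 innate defence secretions kept, 4 were lower and 0 higher, with a median of -1.66. Beside SLPI (1393 and 29.1) and LCN2 (1881 and 46.1) these were the calcium-binding S100A9 (242 and 67.7, 3.53-fold) and the acute phase gene SAA1 (88.4 and 27.2, 3.17-fold). C3, the central complement protein, was 810 and 40.2 (19.7-fold), and CFB was 99.2 and 43.6 (2.24-fold). The complement and coagulation list went both ways, however, with 2 of 9 higher and 2 lower and a median of 0.47, and its higher members were the coagulation inhibitors TFPI2 (450 and 4768) and TFPI (32.0 and 155). IL18 was 184 and 20.5 (8.59-fold), and the leukocyte adhesion receptor ICAM1 was 474 and 64.9 (7.21-fold). In a list of interleukins, related cytokines and their receptors 2 of 40 were higher and 2 lower (5% each). TNF was the only TNF superfamily gene measured in it. The chemokine list was not lower as a whole. Only CXCL5 and CXCL16 of 22 were lower, 0 were higher, and CXCL8 was 302 and 497.

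CXCL5 had the largest lower difference of all genes, at 2454 and 30.7, so its promoter is shown (chr4:73998678-73998927, minus strand, 250 bases before the start). The capitals mark an NF-kB-type word (GGGA, any base, TTTCC, searched on both strands), which begins 91 bases before the start.
CXCL5: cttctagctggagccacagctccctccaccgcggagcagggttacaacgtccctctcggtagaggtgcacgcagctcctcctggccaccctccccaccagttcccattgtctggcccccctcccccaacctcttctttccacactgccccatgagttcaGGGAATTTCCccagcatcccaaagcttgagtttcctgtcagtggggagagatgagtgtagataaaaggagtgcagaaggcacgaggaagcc
The word was in 4 of 15 chemokine promoters and in 0.539% of all tested promoters. The other 3 were CXCL2, CXCL3 and CXCL6, which had log2 differences of -0.07, -0.33 and 0.43. Of the chemokine genes with this word, only CXCL5 was thus past 2-fold. NF-kB pathway and feedback genes went both ways, with 2 of 16 higher and 3 lower. BCL2A1 (64.2 and 261) and TNIP3 (24.8 and 109) were higher, and TNIP1 (396 and 140) was lower. The prostaglandin route was lower at its inducible steps. The cyclooxygenase PTGS2 was 266 and 83 (3.18-fold) and the synthase PTGES was 583 and 91.2 (6.34-fold), in a list of 15 with 3 lower and 1 higher. PTGFRN, which associates with tetraspanins and is no enzyme, was the other lower member (273 and 29.4, 9.04-fold).

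Growth factor genes went both ways. In the EGF family 3 of 12 were higher and 4 lower. The ligands HBEGF (388 and 62.3, 6.15-fold) and EPGN (110 and 21.5, 4.92-fold) were lower, while the ligand EREG was higher (44.9 and 166, 3.64-fold). The receptor EGFR was 651 and 336, just inside 2-fold. Among 52 FGF, PDGF, VEGF, HGF and IGF family genes 6 were higher and 7 lower. ANGPT2, a ligand of the TIE2 receptor, was 32.2 and 327 (9.88-fold), and FGF2 was 179 and 767 (4.27-fold). The paired co-receptors went in opposite directions, with NRP2 at 84.3 and 557 (6.54-fold higher) and NRP1 at 635 and 220 (2.87-fold lower). MST1R, a receptor kinase related to MET, was 138 and 36.6 (3.71-fold lower), although its probes ran from -1.89 to -0.45 on the log2 scale. MET itself was 571 and 609. On the array labelled LNCaP-AI ANGPT2 was 62.1 and FGF2 was 204, nearer to PC3-H, while NRP2 was 556. The RNA-binding genes IGF2BP1 (3.04-fold higher) and IGF2BP3 (2.03-fold lower) were caught by the list's name pattern and are no ligands or receptors.

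In a list of DUSP, ETV, RASA, RASAL and SPRY genes more were higher than lower, at 9 and 1 of 38, with 23.7% higher against the 8.58% background. Several of these genes report or restrain MAP kinase signalling, but the list was drawn by name. What each member does was not checked, and the higher genes include DUSP18 and DUSP19. DUSP6, an ERK phosphatase, was 106 and 560 (5.23-fold). SPRY4 was 57.2 and 175 (3.03-fold), SPRY2 was 72.0 and 185.5 (2.55-fold), and the RAS inhibitor RASA2 was 42.0 and 189 (4.41-fold). ETV1 (2.40-fold) and ETV5 (2.18-fold) were higher, whereas their relative ETV4 was 313 and 144 (2.17-fold lower). The list median was 0.02, so the rest of its genes lay about 0. With the length trend removed 6 of 38 stayed past 2-fold on the higher side.

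In the TGF-beta and BMP pathway list 7 of 39 were higher and 3 lower. Its measured genes included no TGFB ligand and no TGFBR or BMPR receptor gene. The ligands BMP2 (44.3 and 648, 14.3-fold) and BMP6 (68.3 and 262, 3.79-fold) were higher. The extracellular antagonists FST (367 and 37.0, 9.68-fold) and NOG (116 and 51.3, 2.24-fold), which bind such ligands, were lower. The shared mediator SMAD4 was 135 and 382 (2.82-fold), and the inhibitory SMAD7, itself a pathway target, was 46.3 and 116 (2.47-fold). Other genes of the list, 29 of 39, lay within 2-fold, and its median was -0.04. In the Wnt pathway 2 of 34 were higher and 4 lower. Beside DKK1, the receptor FZD6 was 197 and 31.6 (6.07-fold lower) and LRP5 was 304 and 125 (2.43-fold lower), while the nuclear effector LEF1 was 25.9 and 72.1 (2.72-fold higher). With the length trend removed 1 of 34 was higher.

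Matrix and protease genes were mixed. Of 27 matrix and cross-linking genes 6 were higher and 4 lower. SPP1, which encodes osteopontin, was 36.1 and 289 (7.81-fold), and the fibulins EFEMP2 (49.0 and 238, 4.78-fold higher) and EFEMP1 (163 and 31.2, 5.09-fold lower) differed in opposite directions. THBS1 was 2427 and 576 (4.21-fold lower). FN1 was 1433 and 2055, within 2-fold. Among ADAM and ADAMTS-like (ADAMTSL) genes 5 of 16 were higher and 2 lower, and no ADAMTS gene itself was among those measured. ADAM17, the main sheddase of EGF family ligands, was 142 and 456 (3.19-fold higher), while ADAM15 was 321 and 67.7 (4.69-fold lower) and ADAM8 was 171 and 62 (2.73-fold lower). In the actin and adhesion list 5 of 24 were higher and 2 lower, with TPM4 at 244 and 941 (3.84-fold higher) and the leukocyte-type bundling protein LCP1 at 379 and 52.6 (7.09-fold lower). With the length trend removed, 3 ADAM and ADAMTSL genes and 2 actin and adhesion genes were higher, and 7 matrix genes were lower. CCN2 was read by probes that disagreed in size, from 0.98 to 3.45 on the log2 scale.

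Sterol synthesis was the metabolic list with the largest share of higher genes among those described here. Of 19 genes 9 were higher and 1 lower, with a median of 0.54, and the counts were the same with the length trend removed. INSIG1, a sterol-responsive brake on the pathway, was 68.7 and 846 (12.2-fold). The demethylase MSMO1 was 74.0 and 602 (8.04-fold), the sterol carrier STARD4 was 40.7 and 302 (7.27-fold), and the transcription factor SREBF2 was 93.1 and 261 (2.79-fold). The isomerase EBP went the other way, at 288 and 59.1 (4.80-fold lower). SCD, which desaturates fatty acids, was 360 and 1978 (5.49-fold higher), and FASN was 334 and 393. On the array labelled LNCaP-AI all 10 called sterol genes were nearer to PC3-H than to PC3-L. Over all genes that array was nearer to PC3-L at 614 of the 955 higher genes and at 374 of the 418 lower genes.

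Genes of amino acid supply were higher in part. Of 18 aminoacyl-tRNA synthetases, which load amino acids on tRNA, 5 were higher and 0 lower, with a median of 0.74. GARS1 was 277 and 863 (3.10-fold), NARS1 was 534 and 1559 (2.92-fold), IARS1 was 401 and 1102 (2.74-fold), LARS1 was 293 and 689 (2.34-fold) and CARS1 was 109 and 244 (2.23-fold). Asparagine synthetase, ASNS, was 95.4 and 431 (4.48-fold), the serine synthesis enzyme PSAT1 was 261 and 1185 (4.52-fold), and ATF4, the transcription factor of this response, was 170 and 427 (2.50-fold). All 5 called synthetases were nearer to PC3-H on the array labelled LNCaP-AI, where ASNS was 82.9 and PSAT1 was 300. The wider list of unfolded protein and ATF4 responsive genes had 4 of 14 higher and 2 lower, or 5 and 1 with the length trend removed, and of its 6 called genes 3 were nearer to PC3-L on that array and 3 to PC3-H. PHGDH, the first enzyme of serine synthesis, was 187 and 161, and TRIB3, an ATF4-responsive gene, was 145 and 185, so neither was past 2-fold. ASS1, which makes argininosuccinate, was 1146 and 65.5 (17.2-fold lower).

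The word TGATGNAA, which the ATF4 and C/EBP pair binds, was searched on both strands in the same window. It was in 6 of 15 synthetase promoters (AARS1, CARS1, IARS1, MARS1, NARS1 and TARS1) and in 1.64% of all tested promoters. The promoters of ASNS (chr7:97872409-97872658, minus strand) and IARS1 (chr9:92293698-92293947, minus strand) are shown because each holds the word and was higher on PC3-L. The stretch is again the 250 bases before the start, and the match begins 68 bases before it in ASNS and 13 in IARS1.
ASNS: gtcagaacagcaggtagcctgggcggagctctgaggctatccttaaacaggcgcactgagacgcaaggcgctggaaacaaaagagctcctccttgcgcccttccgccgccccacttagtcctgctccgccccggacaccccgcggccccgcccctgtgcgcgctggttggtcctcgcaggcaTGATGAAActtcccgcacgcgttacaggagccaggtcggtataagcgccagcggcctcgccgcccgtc
IARS1: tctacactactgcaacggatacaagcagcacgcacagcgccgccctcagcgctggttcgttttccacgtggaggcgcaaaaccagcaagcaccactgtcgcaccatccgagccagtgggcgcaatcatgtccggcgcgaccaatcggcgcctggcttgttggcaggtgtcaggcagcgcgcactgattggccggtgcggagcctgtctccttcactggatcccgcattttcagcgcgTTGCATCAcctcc
Of the 6 synthetases with the word, CARS1, IARS1 and NARS1 were past 2-fold, and AARS1 (0.92), TARS1 (0.68) and MARS1 (0.40) had smaller log2 differences. GARS1 was past 2-fold with no match in the window of its first listed start, and LARS1 had no promoter entry. The words searched for AP-1 (TGANTCA), TEAD (GGAATG) and the sterol element (TCACNCCAC) were about as common in promoters of genes past 2-fold as in all promoters. For AP-1 this was 5.26% of lower, 4.05% of higher and 4.98% of all genes. Past 4-fold the AP-1 word was more common in both directions, in 7 of 65 lower (10.8%) and 9 of 78 higher (11.5%) promoters.

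Oxidative defence genes were divided. Of 39 genes 6 were higher and 3 lower. Haem oxygenase HMOX1 was 74.9 and 572 (7.55-fold), its regulator NFE2L2 was 74.9 and 205 (2.72-fold) and thioredoxin TXN was 742 and 1927 (2.59-fold). The peroxidases PRDX6 (1806 and 579), GPX1 (189 and 62.1) and PRDX2 (1194 and 418) were 3.11-fold, 3.01-fold and 2.85-fold lower. None of 13 glycolysis and pentose phosphate genes was past 2-fold, and LDHA was 129 and 132. The respiratory chain list held mostly COX and UQC genes, and its measured genes included no NDUF subunit and no SDH gene. Of 30 kept, 0 were higher and 2 lower, UQCRC1 (885 and 340) and CYC1 (847 and 339). Of 73 mitochondrial ribosomal protein genes 1 was higher and 6 were lower, and of 49 cytosolic ones 1 was higher and 1 lower. With the length trend removed 2 glycolysis genes, 3 mitochondrial ribosomal genes and 5 oxidative defence genes were lower.

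More mitosis genes than replication genes were past 2-fold. Of 74 kinesin, centromere and spindle genes 19 were higher and 1 lower, with a median of 0.52, while 0 of 24 replication and DNA repair genes were past 2-fold, with a median of -0.18. The spindle motor KIF11 was 233 and 694 (2.97-fold), KIF20B was 101 and 312 (3.05-fold), and the proliferation marker MKI67 was 458 and 1089 (2.37-fold). PCNA, the replication clamp, was 510 and 319. The higher genes also included KIF5B (503 and 1215, 2.42-fold), a transport motor with no part in the spindle. The mitosis count depended on gene length, since with the length trend removed 10 of 74 were higher and MKI67 was at 0.99. Of 22 apoptosis regulators 8 were higher and 1 lower. The survival factors MCL1 (175 and 614, 3.50-fold), BIRC2 (85.7 and 255, 2.96-fold) and BCL2A1 were higher, and so was the caspase activator APAF1 (55.6 and 143, 2.55-fold). BIRC5, the mitotic member of the family, was 350 and 148 (2.35-fold lower). With the length trend removed the counts were 5 higher and 2 lower. RB1 was 127 and 512 (4.01-fold higher), and CCND1 was 540 and 318.

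Long genes were higher on PC3-L more often than short ones. Among the shortest of 5 equal groups by genomic span, up to 5.74 kb, 1.98% were 2-fold or more higher and 4.13% lower. In the longest group, from 77.3 kb, 19.1% were higher and 3.33% lower. With a smooth trend in gene length and in the spacing of neighbouring genes removed, 565 genes (5.08%) were higher and 510 (4.58%) lower. The brightness of a gene moved with the count too, from 1.26% higher in the dimmest of 5 equal groups to 16.4% in the brightest. Lists of long genes should be read with this in view. Of 96 chromatin modifiers 13 were higher and 0 lower, among them KDM7A (37.1 and 161, 4.24-fold) and CHD2 (77.3 and 236, 3.02-fold), and 7 stayed higher with the trend removed. Of 108 ubiquitin conjugating, USP and TRIM genes 11 were higher and 2 lower, against 3 and 4 with it removed. RNA quality was not given for either culture, and its part in the trend was not tested.

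**Figure D4:**
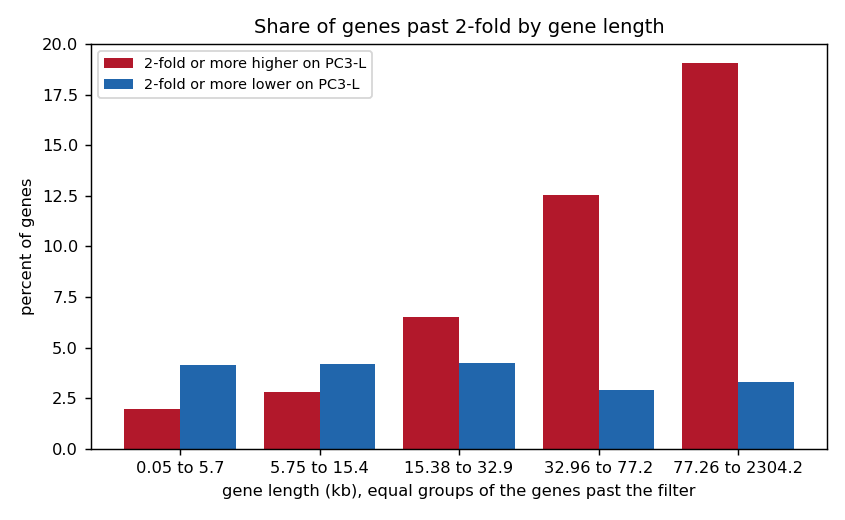
Percent of genes 2-fold or more higher (red) or lower (blue) on PC3-L than on PC3-H, in 5 equal groups of the 11126 genes by genomic length in kb (x axis). The higher share goes from 1.98% to 19.1% across the groups, and the lower share lies between 2.92% and 4.22%.

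The genes that build the laminin-binding glycan differed little. Of 10 measured genes 0 were higher and 1 was lower, with a median of -0.08. The lower gene was LARGE2, an enzyme that lengthens the repeat to which laminin binds, which had 160 and 54.3 (2.92-fold). The kinase POMK, which acts before the repeat is built, was 124 and 211, a log2 difference of 0.77. POMT1 (-0.20) and POMT2 (-0.04), which add the first mannose, POMGNT2 (-0.12), RXYLT1 (0.02), DPM3 (-0.29), DOLK (0.03), GMPPA (0.17) and GMPPB (-0.15) lay within 1.22-fold. Some single genes among other glycan enzymes had larger differences. GALNT3 (4.58-fold) and GALNT18 (119 and 49.6, 2.38-fold) were lower, while GALNT14 (40.4 and 177, 4.30-fold) and GALNT1 (111 and 318, 2.86-fold) were higher. Their list of 15 had 2 higher (13.3%) and 3 lower (20%). In glycosaminoglycan synthesis 5 of 37 were higher (13.5%) and 2 lower (5.41%), beside 8.58% and 3.76% of all genes. These counts are not read as a trait of the list. CSGALNACT2 (64.0 and 219, 3.39-fold higher) and EXTL2 (30.9 and 95.2, 3.02-fold higher) were the furthest from PC3-H. With the length trend removed 2 of the 37 were higher. The proteoglycan core proteins SRGN (1148 and 26.2), SDC4 (1162 and 494) and GPC4 (91.2 and 38.8) were lower, and VCAN was higher (48.0 and 249), although its probes ran from 0.22 to 2.35.

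Of 31 HOX and TALE genes 4 were higher and 1 lower, or 12.9% and 3.23%, close to the background of 8.58% and 3.76%. HOXB2 (50.2 and 198, 3.89-fold), HOXB3 (39.9 and 115, 2.83-fold) and HOXB4 (35.3 and 82.2, 2.29-fold) are neighbours and were all higher, and at the far end of the same cluster the prostate factor HOXB13 was 110 and 45.1 (2.41-fold lower). HOXB13 was 407 on LNCaP. The nuclear receptor PPARG was 103 and 24.5 (4.08-fold lower). Of 402 zinc finger genes 22 were higher and 4 lower. That is 5.47% and 0.995%, both under the background of 8.58% and 3.76%. With the length trend removed 7 were lower.

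Precursors of microRNAs were mostly dim. Of 660 measured 368 were kept, of which 9 were higher and 4 lower (3.53% past 2-fold, against 12.3% of all genes). The array reads the precursor and not the mature RNA. The largest differences were at MIR3143 (1061 and 257, 4.12-fold lower), MIR644A (60.1 and 189, 3.11-fold higher) and MIR548C (18.4 and 57.5, 3.02-fold higher). The 4 precursors described next had smaller ones and were chosen after values were seen. MIR205, an epithelial microRNA known to target ZEB1 and ZEB2, had 60.6 and 25.9 (2.29-fold lower) and 29.2 on the array labelled LNCaP-AI. MIRLET7I was 58.3 and 172 (2.92-fold higher), MIR4500 was 20.8 and 57.0 (2.66-fold higher), and MIR125B1 was 21.2 and 44.0 (2.03-fold higher) beside its host transcript MIR100HG at 53 and 115. The precursors of the miR-200 family (MIR200A, MIR200B, MIR200C, MIR141 and MIR429) lay between 23.5 and 33.2 on PC3-L and between 25.2 and 31.9 on PC3-H, under the filter, so their difference could not be read. Mature RefSeq sequences of MIR205, MIRLET7I, MIR4500 and MIR125B1 follow, 5′ to 3′, with the seed (bases 2 to 8) in capitals, since the seed sets which messages a microRNA pairs with.
hsa-miR-205-5p: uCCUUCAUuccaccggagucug
hsa-let-7i-5p: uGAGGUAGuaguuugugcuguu
hsa-miR-4500: uGAGGUAGuaguuucuu
hsa-miR-125b-5p: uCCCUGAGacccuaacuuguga
Let-7i and miR-4500 share the seed GAGGUAG, whereas miR-205 and miR-125b each have a seed of their own among the 4.

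**Figure D5:**
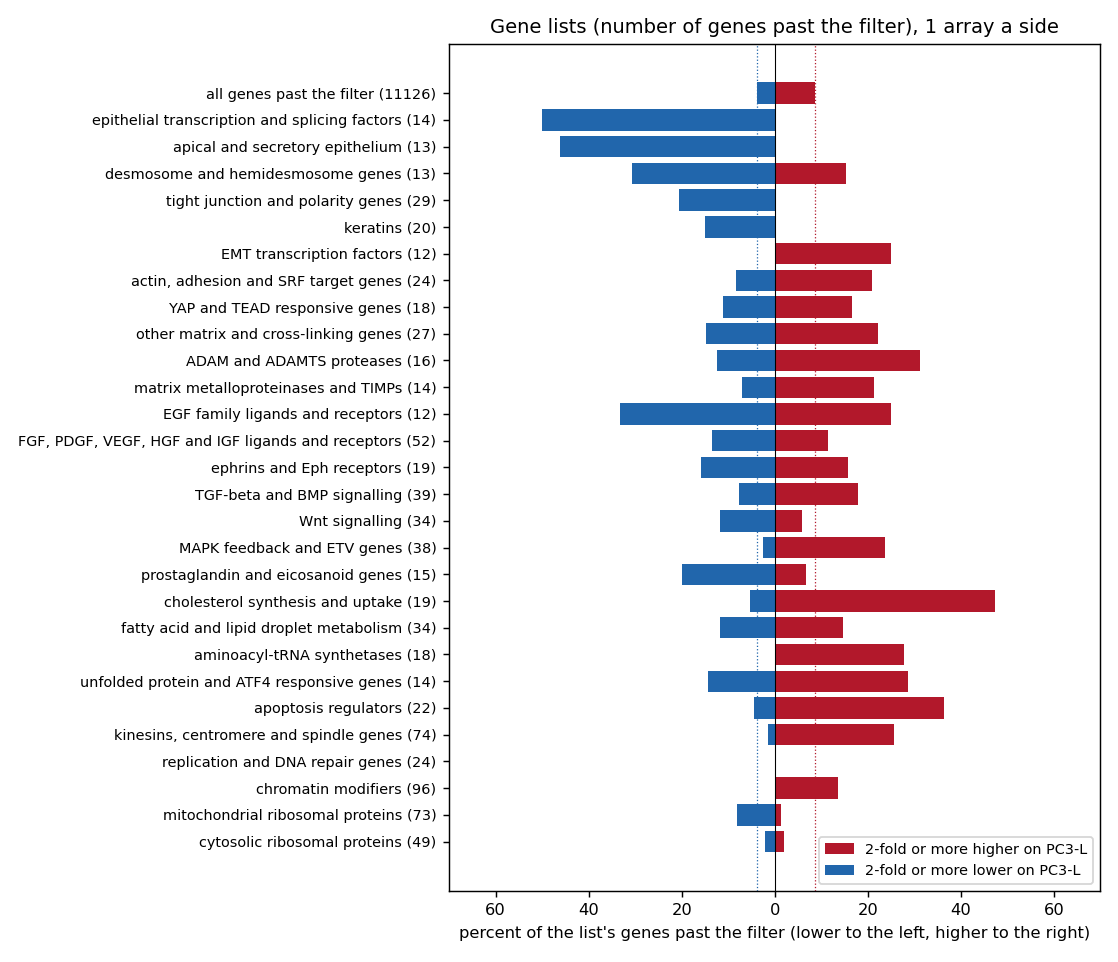
For 28 of the 90 gene lists, each with 10 or more genes kept, and for all genes kept (number of genes in brackets), the percent 2-fold or more higher (red, to the right) or lower (blue, to the left) on PC3-L. Dotted lines mark the background of 8.58% and 3.76%; among the lists drawn, epithelial transcription and splicing factors reach furthest to the left at 50% and cholesterol synthesis furthest to the right at 47.4%, and replication and DNA repair genes have no bar.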

How the data were processed

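The authors deposited linear intensity values in the series matrix, 1 column per array. ISOGEN II served for RNA extraction and the GeneChip WT Terminal Labeling Kit for biotin labelling, per the labels' protocols. The design text names GeneSpring GX 12.6; background correction, probe summary and normalization are not given in the sources used here. Medians were 41.2 on PC3-H and 39.8 on PC3-L.

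Of 37934 probes 14952 (39.4%) had 1 gene symbol in the platform annotation, and all matched RefSeq. They covered 14006 genes. For the 583 genes with several probes the brightest over the 4 arrays was used. A pseudocount of 1 was added before taking log2. The gene had to reach the 40th percentile of its array on the brighter of the arrays. Differences were counted at 2-fold and 4-fold with no test, since each group has 1 array, whose number limits the precision. Python 3.11.15, pandas 2.3.3, numpy 2.4.6 and statsmodels 0.14.6 were used. The counting was tested on simulated data. There were 0 columns of other samples.

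Members, lists and rules were chosen with earlier results of these data known. Genes were named by rule: the 20 largest differences in each direction without small RNAs, uncharacterised loci and Y-linked genes; in each of 90 lists the 4 largest past 2-fold, every member past 4-fold and key members; all laminin-binding glycan genes; and neighbouring runs. Other list members, the printed promoters and the 9 motif words were chosen after values were seen. Alternatives were another pseudocount (16, 0), no filter or the 60th percentile, other probe rules, median centring, quantile normalization, removal of a trend with intensity, and of a trend with gene length and the span of 10 neighbours.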

Additional observations from a re-analysis of the deposited data

Results flagged for a closer look

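Probes that no gene symbol could be given to lie outside every gene count above, and they too differed between the arrays. Of 12660 such probes past the same filter, 675 were 2-fold or more higher on PC3-L and 458 were 2-fold or more lower. That is 5.33% and 3.62%, or 8.95% in all, against 12.3% of named genes. The largest differences among them were 40.5-fold higher and 80.2-fold lower.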

How the results depend on the processing

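No paired analysis was possible because each group has 1 array. The count of higher genes was 955 and went to 565 on removal of the gene length and density trend, while that of lower genes went from 418 to 510; higher genes were 69.6% of those past 2-fold before and 52.6% after. Median centring gave 74.1% and quantile normalization 63.0%. Under the other alternatives the counts ran from 709 to 1051 higher and from 290 to 481 lower. With any listed start of a gene in place of the first, the E-box word was in 41.8% of lower and 17.6% of higher promoters (32.9% and 11.5% with the first); with the trend removed it was in 14.7% of higher promoters. Of 358 named genes past 2-fold 0 changed direction under any alternative. A pseudocount of 16 took 43 below 2-fold, removal of the length trend 78, quantile normalization 13, removal of the intensity trend 8 and the mean over probes 2 (ADGRL1 and ARHGAP12). Signal over background limits what dim genes can show, since no intensity went below 17.6.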

Other observations

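Genes past 2-fold in the same direction lay side by side in 34 runs of 3 or more measured neighbours on the higher side and in 4 on the lower side. The longest, of 6 genes, was CENPK, PPWD1, TRAPPC13, NLN, ERBIN and SREK1. CENPK, a centromere protein, was 54.0 on PC3-H and 157 on PC3-L, and ERBIN, a scaffold of the basolateral membrane, was 137 and 405. A run of 3 held ZEB1, ARHGAP12 and KIF5B, although the probes of ARHGAP12 disagreed, from -0.05 to 1.49. On the lower side the neighbours TMEM9, PKP1 and LAD1 had a median log2 difference of -2.31, and EPHA1 stood beside ARHGEF35 and ARHGEF5.

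Long intergenic RNAs were few. Of 170 kept, 4 were higher and 5 lower, or 2 and 7 with the length trend removed. LINC02582 was 529 on PC3-H and 23.2 on PC3-L (21.9-fold lower), and LINC03033 was 520 and 28.2 (17.9-fold lower). Both were near the floor on LNCaP as well, at 21.3 and 28.2. Of 20 small Cajal body RNAs kept, 0 were higher and 3 lower, or 15% lower beside 3.76% of all genes. The 3 were SCARNA5 (1312 and 307), SCARNA6 (533 and 241) and SCARNA4 (500 and 228). They were 1401, 592 and 408 on the array labelled LNCaP-AI, close to PC3-H. With the length trend removed 2 of the 20 were lower. HSPA1A (1176 and 383) and HSPA1B (1129 and 356) were 3.07-fold and 3.17-fold lower, and as near-identical copies they cannot be read as separate genes.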
